A study of Mus musculus with 18 samples.

Results

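Exporter genes of the ABC (ATP-binding cassette) family, 7 in number, were followed across mouse CD8+ T cells given lithocholic acid (LCA), a hydrophobic secondary bile acid made by gut bacteria. They are Abcb1a, Abcb1b, Abcc1, Abcc3, Abcc4, Abcc5 and Abcg2, 7 of the 24537 genes in the count table, chosen by name as plasma membrane pumps for drugs and organic anions, with no measured value in the rule. The list was nonetheless drawn up with earlier results of these data known. Naive CD8+ cells had received a Cas9 ribonucleoprotein with either a scrambled guide (libraries labelled WT) or a guide kit against Nur77, the nuclear receptor encoded by Nr4a1 (libraries labelled KO). All cells were then activated with antibodies to CD3 and CD28, the signal through the T cell receptor and its co-receptor, and kept overnight without LCA (control), with 10 µM LCA (LCA10) or with 50 µM LCA (LCA50). The 6 groups held 3 libraries each, 18 in all, and total counts ran from 4113713 to 5945518 per library. The labels give neither the strain nor the age of the mice, nor the source of the replicates. The p-values therefore weigh differences against the spread of libraries only, and that spread may be technical.

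ABC exporters use ATP to push substrates out across the cell membrane. Abcb1a and Abcb1b encode the mouse forms of P-glycoprotein, which carries hydrophobic drugs. The Abcc proteins carry organic anions, among them conjugates of glutathione, glucuronate and sulfate, and Abcc4 and Abcc5 also carry cyclic nucleotides. Abcg2 carries drugs, urate and sulfated steroids and marks cells that exclude dyes. In T cells, P-glycoprotein has been linked to tolerance of bile acids in the small intestine, and Abcc1 is known as the exporter of leukotriene C4.

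Both P-glycoprotein genes lie on chromosome 5 of GRCm38, Abcb1a at 8660077 to 8748575 and Abcb1b at 8798147 to 8866315, both on the plus strand. Their upstream sequences are shown as a description. Only Abcb1b of this pair was called with LCA50, but the genes were not shown to differ in their response. Any part of these sequences in the LCA50 changes was not tested. The 250 bases before each RefSeq start (GRCm38.p6, plus strand, 5′ to 3′) carry capitals where the CCAAT box or the GC box, GGGCGG, matched on either strand.
Abcb1a, chr5:8566841-8567090: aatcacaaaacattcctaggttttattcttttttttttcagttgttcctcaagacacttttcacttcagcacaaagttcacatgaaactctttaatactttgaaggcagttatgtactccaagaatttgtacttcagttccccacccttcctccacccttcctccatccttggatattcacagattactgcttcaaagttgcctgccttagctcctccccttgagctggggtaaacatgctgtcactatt
Abcb1b, chr5:8797897-8798146: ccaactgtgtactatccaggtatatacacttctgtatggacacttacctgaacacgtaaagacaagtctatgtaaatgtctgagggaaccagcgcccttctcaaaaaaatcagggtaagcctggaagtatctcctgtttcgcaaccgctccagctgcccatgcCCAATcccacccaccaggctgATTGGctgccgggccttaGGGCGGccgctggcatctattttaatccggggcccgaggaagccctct
The RefSeq window of Abcb1a ends at 8567090, far upstream of the annotated gene start at 8660077, so it may not hold the start used in these cells. That of Abcb1b ends at 8798146, next to its annotated start at 8798147. The windows are therefore not placed alike relative to the annotated genes. Over the full 300-base windows, which add the first 50 bases of the transcript, Abcb1b held 2 matches to CCAAT and 1 to GGGCGG, and Abcb1a held none of either. Of 32851 RefSeq promoters of that length, 37.4% held CCAAT and 35.7% held GGGCGG on either strand. The letters TGACNNNGC, the core of the antioxidant response element, occurred once in the Abcb1a window and not in that of Abcb1b, against 12.4% of all promoters. RefSeq gave 8 such windows for 5 of the 7 genes, with none for Abcc1 and Abcc3. The Nur77 response element AAAGGTCA, searched on both strands, was in 0 of the 8 windows and in 1.51% of all promoters.

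Levels are given in CPM, counts per 1000000 counts of the library after scaling by TMM, edgeR's correction for library composition. All 7 exporters had counts in every library, and all 7 were among the 11651 genes with enough counts to be tested. Per kilobase of merged exons, the level averaged over the 18 libraries was highest for Abcb1b at 12.1 ± 2.2 CPM per kilobase (SD over libraries, n = 18). It was 7.27 ± 1.26 for Abcc1, 4.63 ± 0.716 for Abcc4 and 4.04 ± 0.846 for Abcb1a. Abcc5 followed at 2.14 ± 0.43, Abcg2 at 1.78 ± 0.422 and Abcc3 at 0.337 ± 0.16 CPM per kilobase. In this order the neighbours Abcc4 and Abcb1a, and Abcc5 and Abcg2, differed by less than 1 SD of either.

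The libraries carried the RNA of the labelled cell type. Cd8a was at 499 to 666 CPM and Cd3e at 360 to 486 CPM, whereas Cd4 averaged 0.312 CPM. Of the other listed CD4 T cell markers, Cd40lg averaged 0.564, Zbtb7b 5.35, Foxp3 12.8 and Ctla4 198 CPM, so Cd4 alone does not measure purity. Nr4a1 had 29 to 84 counts in WT and 36 to 71 in KO libraries (KO against WT log2 fold change -0.16 ± 0.19, edgeR quasi-likelihood test with Benjamini-Hochberg adjustment, adjusted p = 0.789), so its RNA does not check the guide labels. Summed counts of olfactory, vomeronasal and trace amine receptor genes, which T cells are not known to use, served as a measure of library background. This background was 50.4 to 115 CPM in the control libraries, 66.3 to 91.3 CPM with LCA10 and 47.8 to 224 CPM with LCA50. KO LCA50 replicate 1 (166 CPM) and WT LCA50 replicate 3 (224 CPM) had the highest value in their groups. In bulk RNA, fewer cells of a type and less RNA per cell cannot be told apart.

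At 50 µM LCA, Abcb1b RNA fell in both genotypes and, averaged over genotypes, Abcc1 RNA rose, while the other 5 exporters did not pass the test. A gene is called below when its edgeR adjusted p is under 0.05, with 3 libraries in each group, and log2 fold changes are given ± standard error. In WT, 1 of 7 exporters was called, and it was lower, where 8.58% of all genes tested were called either way and 4.93% lower. In KO, 1 of 7 was called, again lower, where 6.35% were called either way and 3.42% lower. Averaged over genotypes, 1 exporter was higher and 1 lower, where 16.5% of genes were called, 7.86% higher and 8.66% lower. The median log2 fold change of the 7 was 0.07 in WT and -0.10 in KO, where that of all genes tested was 0.01 and 0.00.

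**Figure D1:**
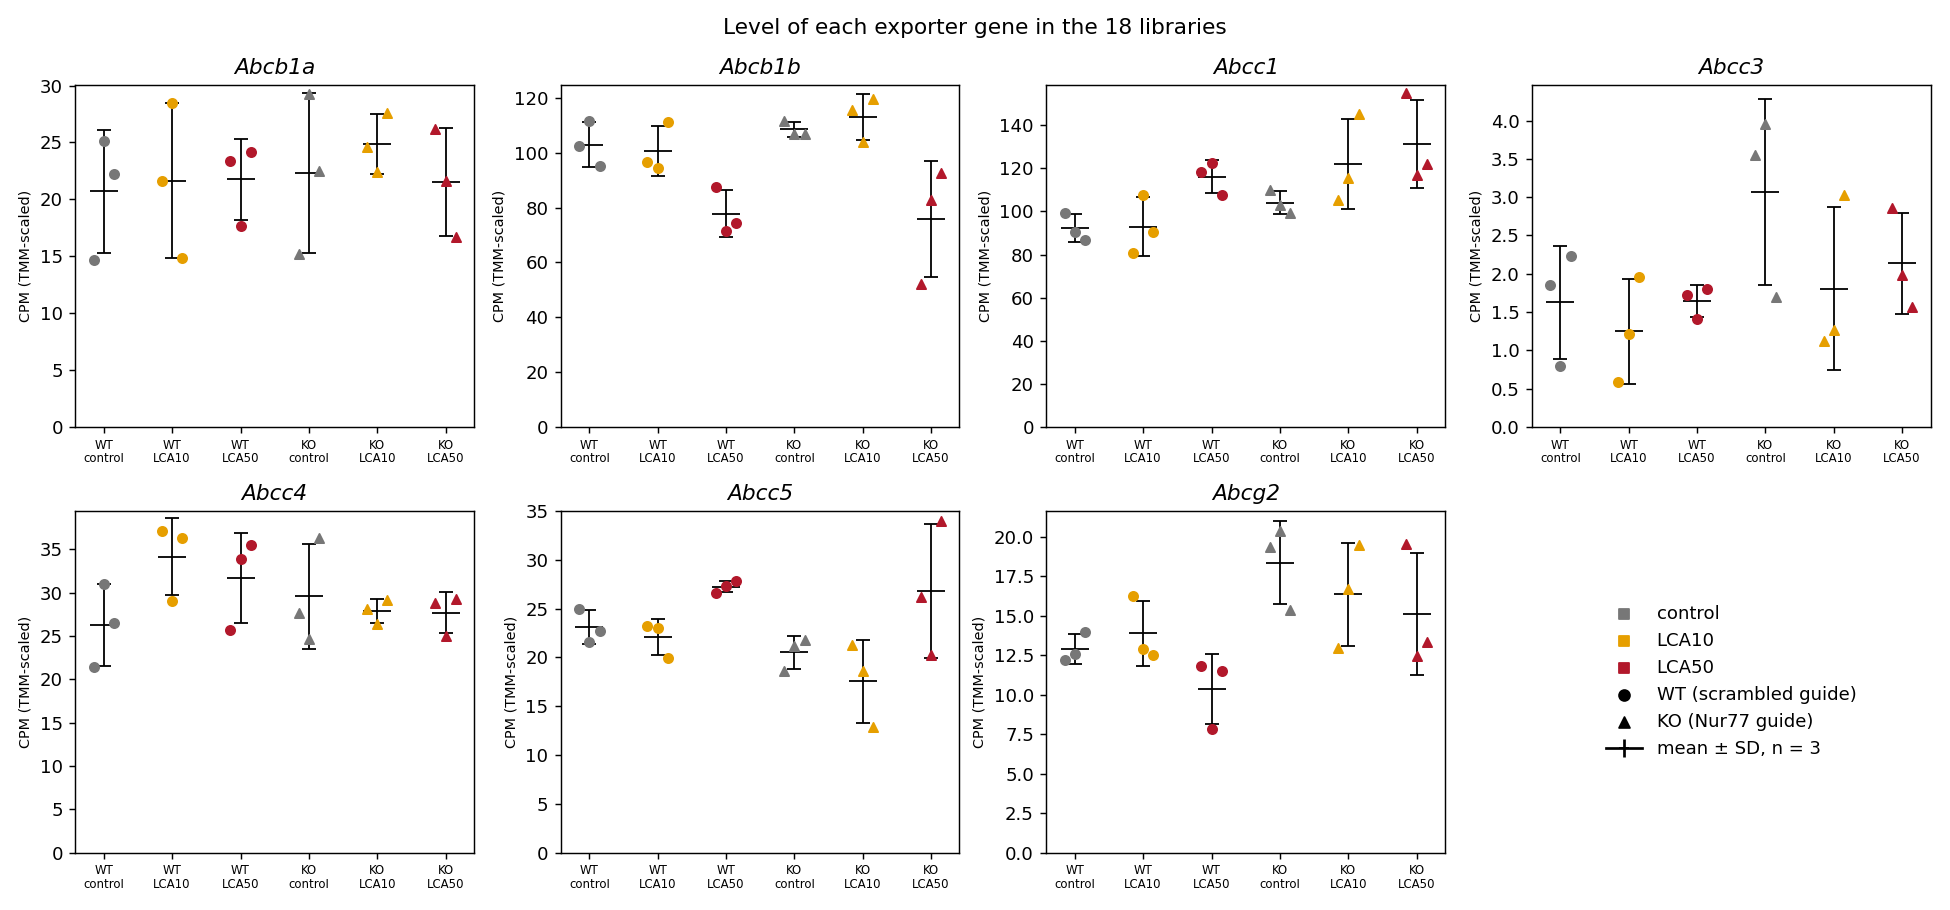
Level of each exporter gene in CPM (counts scaled to a common library size) in the 18 libraries, by group; each point is a library and the bars are the mean ± SD of 3. The 6 LCA50 libraries for Abcb1b sit between 52.0 and 92.7 CPM, under the 12 others at 94.5 to 120 CPM.

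Abcb1b encodes the more abundant of the P-glycoprotein RNAs in these cells. Its level in WT control replicates 1, 2 and 3 was 102, 111 and 95.1 CPM, in WT LCA10 96.5, 94.5 and 111 CPM, and in WT LCA50 87.5, 71.3 and 74.5 CPM. In KO control it was 112, 107 and 107 CPM, in KO LCA10 115, 104 and 120 CPM, and in KO LCA50 52.0, 82.8 and 92.7 CPM. Every LCA50 library was below every control and LCA10 library, and the LCA10 libraries overlapped those of control. Of all genes tested, 0.772% had all 6 LCA50 libraries below the 12 others, a split looked at after the values were seen. The lowest value belonged to KO LCA50 replicate 1, which also had the lowest total count, 4113713. Over all genes with enough counts, it differed from replicates 2 and 3 by mean squared differences, scaled by counting error, of 8.49 and 8.12. Replicates 2 and 3 differed by 3.64, and the largest such value in another group was 5.22, in KO LCA10.

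The change of Abcb1b with LCA50 was -0.41 ± 0.13 in WT (edgeR, Benjamini-Hochberg adjusted p = 0.0484) and -0.51 ± 0.13 in KO (adjusted p = 0.0141). Averaged over genotypes it was -0.46 ± 0.09, with 6 of 6 LCA50 libraries lower (edgeR adjusted p = 0.000611). In KO, Abcb1b also fell between LCA10 and LCA50, by a log2 change of -0.57 ± 0.13 (edgeR adjusted p = 0.0185), the 1 exporter called where 1.38% of genes were called either way and 0.918% lower. In WT the same difference was -0.37 ± 0.13 (edgeR adjusted p = 0.137), with 0 of 7 exporters called where 2.27% of genes were. The difference between KO and WT in the LCA50 response of Abcb1b was -0.10, with a 95% confidence interval from -0.48 to 0.27.

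The calls of Abcb1b within a genotype depended on single libraries. The KO value of Abcb1b was -0.30 without KO LCA50 replicate 1 (edgeR adjusted p = 0.127), and it missed the threshold without KO control replicate 1 (adjusted p = 0.0566) or replicate 3 (adjusted p = 0.0506). The KO difference between LCA50 and LCA10 was not called without KO LCA10 replicate 1 or 3 (edgeR adjusted p = 0.0941 and 0.112) or KO LCA50 replicate 1, where it was -0.36 (adjusted p = 0.14). The WT LCA50 value of Abcb1b kept the call only without WT LCA50 replicate 1 (edgeR adjusted p = 0.028) and ranged up to an adjusted p of 0.195 without the other 5. With library background as a covariate, the WT value was -0.24 ± 0.15 (edgeR adjusted p = 0.481) and the value averaged over genotypes -0.39 (adjusted p = 0.00304). The averaged call was made in 12 of 12 fits that left out 1 library, from -0.54 to -0.36.

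Some lists of cell type markers also differed between LCA50 and control libraries, while the ranges of others overlapped. Markers of CD8 T cells, 10 of 11 in the table, summed to 11158 to 11536 CPM in WT control and 9663 to 10667 CPM in WT LCA50 libraries, with 3 of 10 called lower. In KO they summed to 11929 to 12537 CPM in control and 7824 to 12845 CPM with LCA50, with 2 of 10 called lower. Of all genes tested, 4.93% were called lower in WT and 3.42% in KO. Most of the CD8 sum was Gzmb, at 6350 CPM averaged over the libraries, against 578 CPM for Cd8a. Gzmb was not among the genes called lower, which were Cd8b1, Cd3g and Cd28 in WT and Cd8b1 and Cd28 in KO. Markers of natural killer and gamma delta T cells, 5 of 6 in the table, went from 90.1 to 100.2 CPM in WT control to 134 to 158 CPM with LCA50, and from 79.6 to 91.9 to 106 to 141 CPM in KO. Nearly all of this sum was Eomes, which activated CD8+ cells also express. Markers of CD4 T cells, mostly Ctla4, summed to 230 to 272 CPM in WT control and 159 to 192 CPM with LCA50, and to 244 to 261 and 193 to 220 CPM in KO. Of the 3 tested, only Ctla4 was called in each genotype, and it was lower. The median log2 change of the 3 was nevertheless 0.57 in WT and 0.20 in KO. Averaged over genotypes 1 was called higher and 1 lower, where 7.86% and 8.66% of all genes tested were. B cell markers summed to 8.89 to 11.5 CPM in KO control and 4.75 to 6.67 CPM with LCA50, where the 1 tested of 7 was called lower. In WT they summed to 7.19 to 12.4 and 8.37 to 9.03 CPM, and that marker was not called. Myeloid markers summed to 58.2 to 87.4 CPM in WT control and 66.3 to 76.8 CPM with LCA50, with 2 of 10 tested called lower, and to 24.5 to 29.6 and 24.3 to 36.0 CPM in KO, with none called. Red cell and platelet markers summed to 31.6 to 57.3 CPM in WT control and 12.4 to 47.4 CPM with LCA50. In KO they summed to 0.943 to 6.25 and 4.75 to 7.87 CPM, and none of the 3 tested was called in either genotype. No marker of these lists in the table was at 0 in all libraries. The part of these markers in the LCA50 differences of Abcb1b and Abcc1 was not tested.

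**Figure D2:**
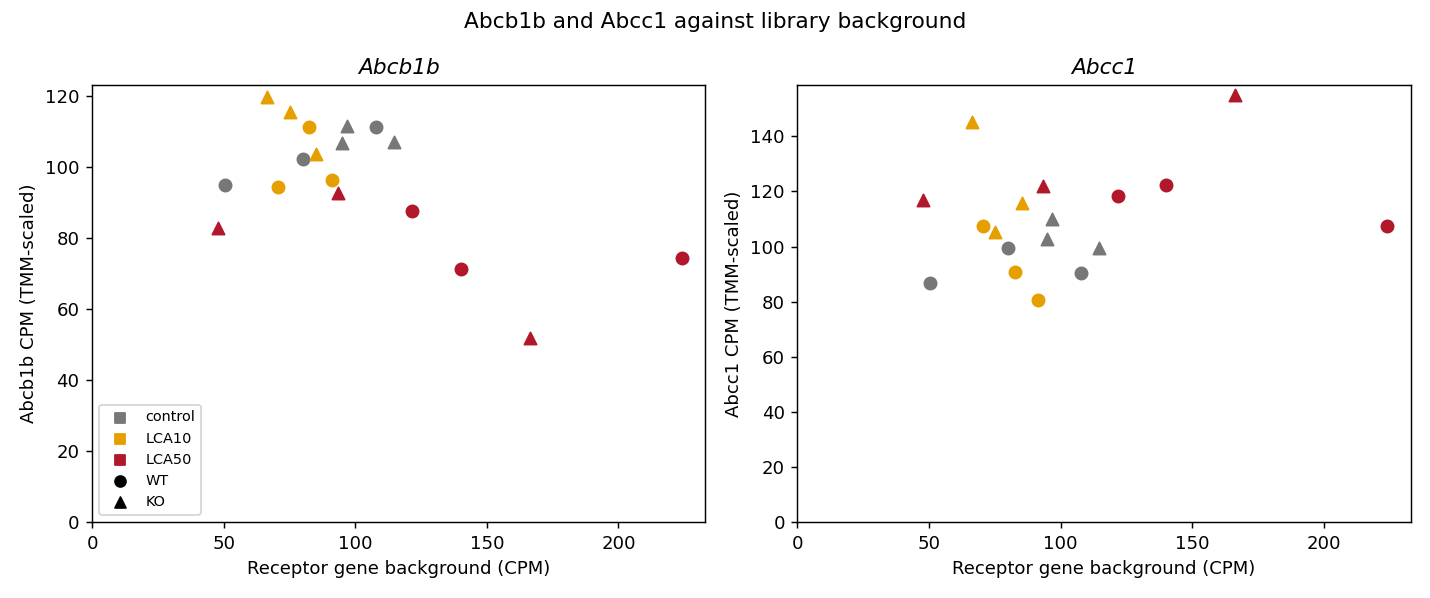
Abcb1b (left) and Abcc1 (right) in CPM against the summed level of receptor genes used as library background, 1 point per library, coloured by dose and shaped by genotype. KO LCA50 replicate 1, at a background of 166 CPM, holds the lowest Abcb1b value (52.0 CPM) and the highest Abcc1 value (155 CPM).

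Abcb1a, the other P-glycoprotein gene, showed no such shift. Its group means lay between 20.7 ± 5.42 CPM (SD, n = 3) in WT control and 24.9 ± 2.64 CPM in KO LCA10, and all neighbours in the order of the 6 groups overlapped. Single libraries ran from 14.7 to 29.2 CPM. The averaged LCA50 change was 0.00, with a 95% confidence interval from -0.34 to 0.34. Abcb1a made up 12.0 to 21.5% of the counts of the pair in control libraries and 15.3 to 33.5% with LCA50, highest in KO LCA50 replicate 1. The log2 ratio of Abcb1b to Abcb1a counts averaged 2.34 in the 6 control and 1.82 in the 6 LCA50 libraries. That difference of -0.52 had a two-sided exact permutation p of 0.095 over all 400 arrangements within genotype, so the genes were not shown to differ in their response.

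Reads of this pair could be assigned to either gene. Of the 50-base stretches of the Abcb1b transcript, 768 of 4257 (18%) also occurred in Abcb1a, and none of the other 5 exporters shared any stretch with another gene. In the annotation the minus-strand gene Gm5106 covers 143 exonic bases of Abcb1b and Gm42686 covers 553 of Abcb1a, and the counting is not stated to use strand. With counts of both genes summed, the LCA50 change was -0.31 ± 0.10 in WT (edgeR adjusted p = 0.0548), -0.42 in KO (adjusted p = 0.00958) and -0.37 averaged over genotypes (adjusted p = 0.000442).

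Abcc1 encodes MRP1, which exports glutathione conjugates (chromosome 16, 14361558 to 14475737, plus strand, GRCm38). Its level in WT control was 99.3, 90.5 and 86.8 CPM, in WT LCA10 80.6, 108 and 90.6 CPM, and in WT LCA50 118, 122 and 107 CPM. In KO control it was 110, 103 and 99.4 CPM, in KO LCA10 105, 116 and 145 CPM, and in KO LCA50 155, 117 and 122 CPM. The LCA50 libraries were above the control libraries within each genotype, as held for 4.34% of all genes tested, but KO control replicate 1 reached above the lowest WT LCA50 library.

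The LCA50 change of Abcc1 was 0.33 ± 0.12 in WT (edgeR adjusted p = 0.0707) and 0.33 ± 0.11 in KO (edgeR adjusted p = 0.0773), neither of them called. The KO value of Abcc1 was 0.20 without KO LCA50 replicate 1 (edgeR adjusted p = 0.414) and was called at 0.41 without KO LCA50 replicate 2 (adjusted p = 0.0382). Averaged over genotypes it was 0.33 ± 0.08 (edgeR adjusted p = 0.00388), called in 12 of 12 fits that left out 1 library, from 0.27 to 0.37. Its KO against WT difference in the LCA50 response was 0.00, with a 95% confidence interval from -0.33 to 0.33. With background as a covariate the averaged value was 0.30 (edgeR adjusted p = 0.0167). Leaving out the 2 LCA50 libraries of highest background gave 0.29 (edgeR adjusted p = 0.0136).

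**Figure D3:**
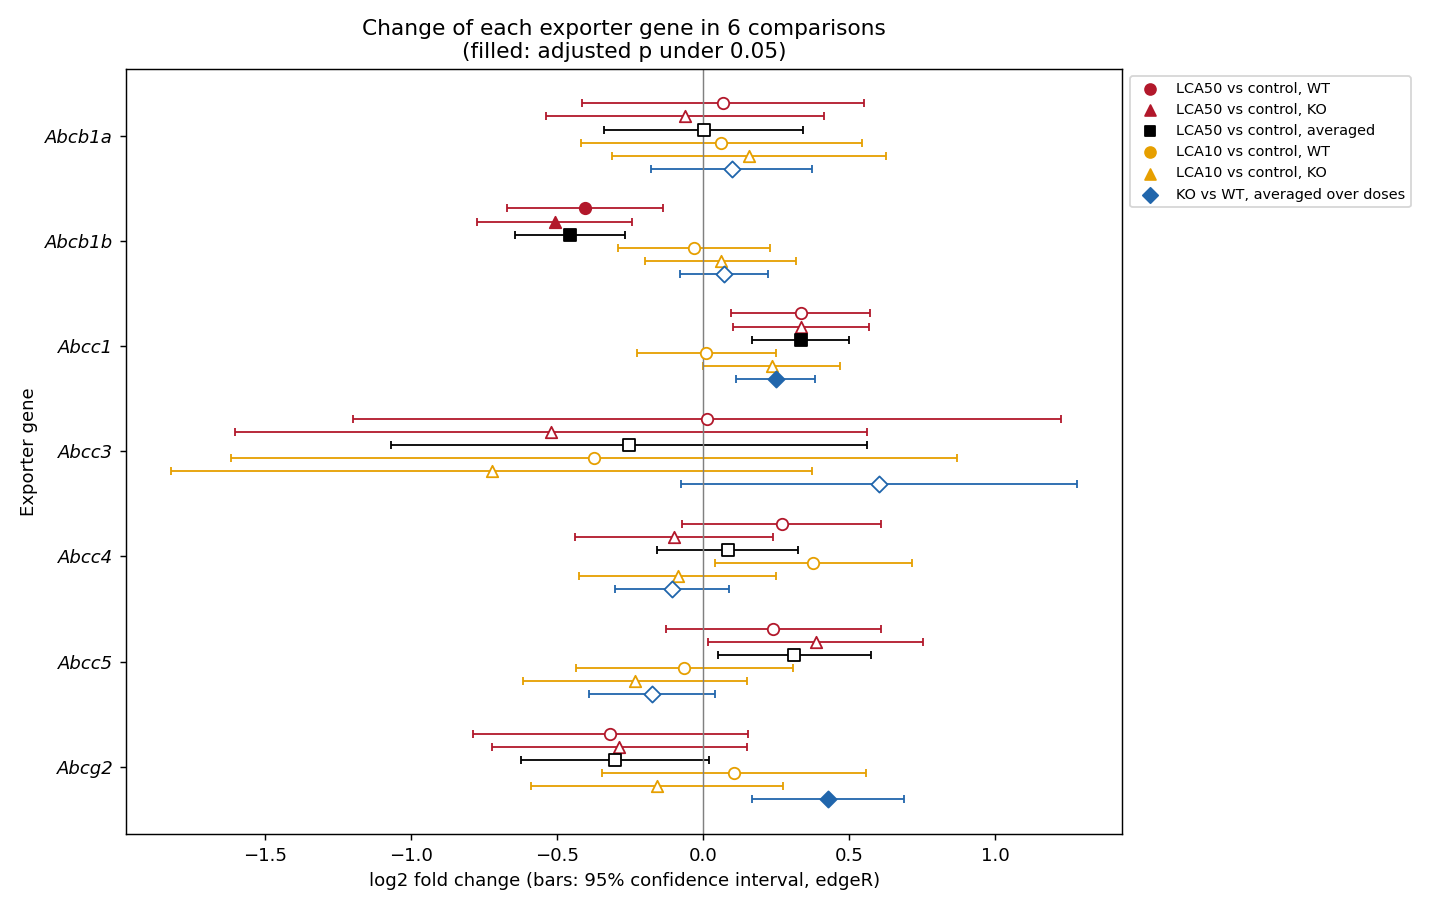
Log2 fold change of each exporter gene in 6 comparisons, with 95% confidence intervals from edgeR; filled marks have an adjusted p under 0.05. The filled marks are Abcb1b below 0 in the 3 LCA50 comparisons, Abcc1 above 0 in the averaged LCA50 and the KO against WT comparisons, and Abcg2 above 0 in KO against WT.

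**Figure D4:**
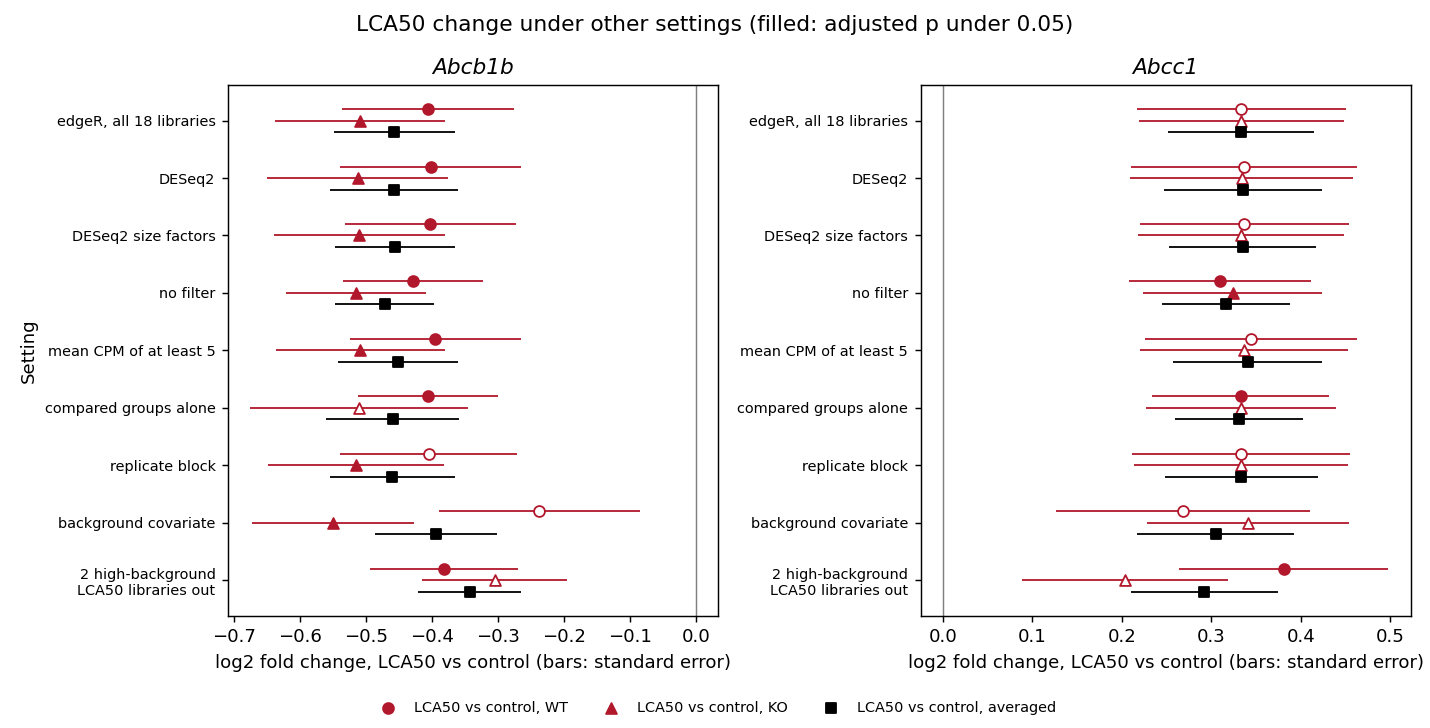
LCA50 against control for Abcb1b (left) and Abcc1 (right) under 9 analysis settings, as log2 fold change ± standard error; filled marks have an adjusted p under 0.05. The averaged values (squares) are filled in every setting drawn, whereas WT and KO values change between filled and open.

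None of the remaining 3 Abcc exporters was called with LCA. Abcc4, or MRP4, which carries cyclic AMP and prostaglandins (chromosome 14, 118482692 to 118706219, minus strand), had group means from 26.3 ± 4.74 CPM (SD, n = 3) in WT control to 34.2 ± 4.44 CPM in WT LCA10. Its largest LCA value was that WT LCA10 difference, 0.38 ± 0.17 (edgeR adjusted p = 0.579), and every neighbouring pair of groups overlapped. Abcc5, or MRP5, which carries cyclic GMP (chromosome 16, 20331303 to 20426394, minus strand), had 26.6, 27.3 and 27.8 CPM in the 3 WT LCA50 libraries and 23.1 ± 1.75 CPM (SD, n = 3) in WT control, without overlap. Groups also stood apart for 26.8% of all genes tested in that comparison. In KO the LCA50 libraries of Abcc5 had 26.2, 20.2 and 34.0 CPM and overlapped control at 18.6 to 21.8 CPM. Its averaged LCA50 change was 0.31 ± 0.13 (edgeR adjusted p = 0.0942). Without KO LCA50 replicate 2 it was called at 0.40 (edgeR adjusted p = 0.0269), and without KO LCA50 replicate 3 it was 0.20 (adjusted p = 0.312). Between LCA10 and LCA50 in KO, Abcc5 differed by 0.62 ± 0.19 (edgeR adjusted p = 0.0955), and this was called without KO LCA50 replicate 2 (0.79, adjusted p = 0.0186).

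Abcc3, or MRP3, a pump for glucuronide and bile salt conjugates in liver and gut (chromosome 11, 94343295 to 94392997, minus strand), was near the limit of detection. It had 3 to 21 counts per library, 0.580 to 3.96 CPM, and the highest group mean was 3.07 ± 1.21 CPM (SD, n = 3) in KO control. Its averaged LCA50 change had a 95% confidence interval from -1.07 to 0.56, so a difference was not detectable at this depth.

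Abcg2, the breast cancer resistance protein (chromosome 6, 58584523 to 58695676, plus strand), passed the test between guides, averaged over doses, and was not called with LCA. Its level in WT control was 12.2, 12.6 and 14.0 CPM, in WT LCA10 16.2, 12.9 and 12.5 CPM, and in WT LCA50 11.8, 7.83 and 11.5 CPM. In KO control it was 19.4, 20.4 and 15.4 CPM, in KO LCA10 13.0, 16.7 and 19.5 CPM, and in KO LCA50 19.5, 12.5 and 13.4 CPM. The KO libraries were above the WT libraries in control and at LCA50, as were 8.35% and 8.37% of all genes tested, and overlapped them at LCA10. The LCA50 change of Abcg2 was -0.32 ± 0.23 in WT and -0.29 ± 0.21 in KO, and averaged over genotypes -0.30 ± 0.16 (edgeR adjusted p = 0.204). With 1 library left out, the WT value of Abcg2 ranged from -0.42 to -0.15 (the latter without WT LCA50 replicate 2) and the KO value from -0.50 (without KO LCA50 replicate 1) to -0.17 (without KO LCA50 replicate 2).

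Averaged over the 3 doses, 2 of 7 exporters were higher in libraries labelled KO than in those labelled WT and none was lower, where 5.15% of all genes tested were called, 3.36% higher. Abcg2 differed by 0.43 ± 0.13 (edgeR adjusted p = 0.0424) and Abcc1 by 0.25 ± 0.07 (edgeR adjusted p = 0.0204). The 9 KO libraries overlapped the 9 WT libraries for both genes, where 0.524% of all genes tested did not overlap. They lay at 12.5 to 20.4 against 7.83 to 16.2 CPM for Abcg2 and 99.4 to 155 against 80.6 to 122 CPM for Abcc1. At single doses 0 of 7 exporters were called, where 0.627% of genes were called in control, 0.661% at LCA10 and 1.94% at LCA50. Abcg2 then differed by 0.51 ± 0.22, 0.24 ± 0.22 and 0.54 ± 0.23 in control, LCA10 and LCA50 (edgeR adjusted p = 0.451, 0.859 and 0.274). For Abcc1 the values were 0.17 ± 0.12, 0.40 ± 0.12 and 0.17 ± 0.11 (edgeR adjusted p = 0.776, 0.128 and 0.543), largest at LCA10.

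These guide differences depended on single libraries. Abcg2 was called in 7 of 18 fits that left out 1 library, with an adjusted p of up to 0.113 (without WT LCA50 replicate 2). The call of Abcg2 was lost without any 1 of the 3 WT control libraries, WT LCA10 replicate 2 or 3, WT LCA50 replicate 2, KO control replicate 1 or 2, KO LCA10 replicate 2 or 3, or KO LCA50 replicate 1. Abcc1 was called in 13 of 18 and lost without WT control replicate 3, WT LCA10 replicate 1, WT LCA50 replicate 3, KO control replicate 1 or KO LCA10 replicate 3, with an adjusted p of up to 0.0596. Markers of myeloid cells, 12 of 12 in the table and none at 0 in all libraries, moved with the guide, summing to 56.6 to 87.4 CPM in WT and 24.3 to 36.0 CPM in KO libraries. Red cell and platelet markers, 10 of 10 in the table, summed to 4.49 to 57.3 CPM in WT and 0.943 to 22.6 CPM in KO libraries. The part of both lists in the Abcg2 and Abcc1 differences was not tested.

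LCA10 gave no called exporter in either genotype, where 0.386% of all genes tested were called in WT and 0.326% in KO. No exporter was called for a difference between genotypes in the response to LCA50 or to LCA10. Over all genes, edgeR called 0 for either difference, with 729 and 382 genes at an unadjusted p under 0.05, and DESeq2 called 1 and 0.

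Other ABC transporters were mostly not called. Of 42 listed, 21 could be tested. With LCA50, 2 fell and none rose in WT, where 8.58% of all genes tested were called, and 1 fell and none rose in KO, where 6.35% were called. Averaged over genotypes 3 fell and 1 rose, where 16.5% of all genes were called. The gene that rose was Abcb6 (log2 change 0.35 ± 0.10), named after its values were seen. Abcg1, which exports cholesterol and is a target of liver X receptors, went from 24.3 ± 3.06 to 4.34 ± 2.19 CPM in WT (SD, n = 3), a log2 change of -2.48 ± 0.32 (edgeR adjusted p = 3.78e-06), and by -2.54 ± 0.31 in KO (edgeR adjusted p = 2.04e-06). Abcg3 fell by 0.79 on the log2 scale in WT (edgeR adjusted p = 0.0258). The median change of the 21 was -0.04 in WT and -0.10 in KO.

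Among 21 listed genes for sensors of xenobiotics and bile acids, their partners and other regulators, 13 could be tested. The list includes the receptors known to control these pumps in liver. PXR (Nr1i2), CAR (Nr1i3), FXR (Nr1h4) and the bile acid receptor Gpbar1 had too few counts. With LCA50 in WT, Rxra, the partner of many nuclear receptors, rose by 1.77 ± 0.30 on the log2 scale, Ahr, the dioxin receptor, rose by 1.25 ± 0.27, and Hif1a, the hypoxia factor, fell (log2 change -0.48 ± 0.07). In KO, Rxra rose by 1.89 ± 0.29 and no other gene of this list was called. So 2 of the 13 listed genes were higher and 1, Hif1a, was lower in WT, where 8.58% of all genes tested were called. In KO 1 of 13 was called, where 6.35% of all genes tested were. Median changes of the 13 were 0.13 in WT and 0.02 in KO.

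Glutathione and its conjugates are substrates of Abcc pumps. Of 28 genes of glutathione and its conjugation, 16 could be tested. With LCA50, 2 rose and 3 fell in WT, where 8.58% of all genes tested were called, and 2 rose and none fell in KO, where 6.35% were called. Gclm and Gclc, the subunits of the rate-limiting enzyme of glutathione synthesis, rose in both genotypes, Gclm by 0.76 ± 0.11 in WT and 0.95 ± 0.11 in KO, and Gclc by 0.57 ± 0.11 and 0.50 ± 0.11. The glutathione transferases Mgst2 (log2 change -0.60 ± 0.13), Gstt1 (-1.03 ± 0.30) and Gstt2 (-0.43 ± 0.14) fell in WT. Median changes of the 16 were -0.24 in WT and 0.01 in KO.

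Sulfation and glucuronidation genes gave 10 testable of 24, with 1 called in WT, Papss2, a maker of the sulfate donor, which rose by 2.10 ± 0.64 from 1.01 ± 0.339 CPM, and none in KO. Of all genes tested, 8.58% were called in WT and 6.35% in KO. In KO, Ugdh had a change of -0.10 and Papss1 of -0.18 (edgeR adjusted p = 0.682 and 0.6). Of 18 uptake carriers for bile acids and organic anions, 4 could be tested. Slco3a1 rose by 0.41 ± 0.09 in WT and 0.46 ± 0.09 in KO, and Slco4a1 fell in KO (log2 change -0.57 ± 0.14). Thus 1 of 4 was called in WT, where 8.58% of all genes tested were. In KO 1 was higher and 1 lower, where 6.35% of all genes tested were called.

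Genes that make or break cyclic nucleotides, which Abcc4 and Abcc5 export, gave 16 testable of 28. In WT 3 of 16 fell with LCA50, where 4.93% of all genes tested were lower, the phosphodiesterases Pde3b (-0.28 ± 0.08) and Pde2a (-0.87 ± 0.28) and the adenylate cyclase Adcy7 (-0.34 ± 0.10). In KO 1 of 16 fell, Adcy7 (-0.43 ± 0.10), where 3.42% of all genes were lower, and none was called higher in either genotype. Median changes of the 16 were -0.09 in WT and -0.38 in KO.

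Across the 18 libraries, the genes whose log2 CPM followed each exporter most closely among 9374 genes were found by Pearson's r, given as a description, since libraries share groups and depth. For Abcb1b they included Serpina3f (r = 0.97) and Acsl3 (r = 0.95). For Abcc1 they were Psd4 (r = 0.86), Gys1 (r = 0.86) and Gxylt1 (r = 0.85). The closest gene was at 0.80 for Abcg2 (Phf13), 0.81 for Abcc5 (Pa2g4), 0.79 for Abcc4 (Slc39a6) and 0.76 for Abcb1a (Smyd4).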

How the data were processed

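RNA was extracted with a Qiagen kit and made into libraries with an ultra-low-input protocol, per the labels. The authors deposited raw counts per gene symbol for the 18 libraries. Per the submitters' processing notes, STAR, HOMER and DESeq2 and the builds GRCm38 and mm10 were used, and versions, trimming, counting rules and strand are not given in the sources used here.

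Counts were fitted with edgeR 4.0.16 (R 4.3.3, limma 3.58.1) in one model of 6 groups over all 18 libraries, after filterByExpr with a minimum count of 10 and TMM scaling. Quasi-likelihood F tests gave 13 contrasts, adjusted by Benjamini-Hochberg over 11651 genes and called under 0.05. CPM used TMM-scaled library sizes, and log2 CPM a prior count of 2. The code was tested on simulated data.

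The members and gene lists were chosen with earlier results of these data known, and so were the motifs. All 7 exporters were tested in every contrast. Of each other list, up to 3 called genes with the smallest p each way are named for LCA50 in each genotype, and 2 abundant ones otherwise. For exporters with a mean CPM of at least 5, the 3 genes with the highest Pearson's r were taken, of which 1 is not reported here. Alternatives were DESeq2 1.42.0, its size factors, no filter, keeping only genes with a mean CPM of 5 or more, fits of the compared groups, a replicate block, glmTreat at a log2 fold change of 0.5, Abcb1a and Abcb1b summed, and each library left out. Exon lengths, overlaps and transcripts came from the GRCm38 annotation.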

Additional observations from a re-analysis of the deposited data

How the results depend on the processing

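No exporter that was called changed direction under another setting. In WT at LCA50 against control, 1 exporter was called. This became 2 with no filter, with the compared groups alone and without both high-background LCA50 libraries (Abcb1b and Abcc1), and 0 with the replicate block, glmTreat or the background covariate. In KO at LCA50 it was 1 and became 2 with no filter and 0 with the groups alone (Abcb1b at -0.51, adjusted p = 0.136), glmTreat or both libraries out. For LCA50 against LCA10, the count went from 0 to 1 in WT with no filter and the groups alone, and from 1 to 0 in KO with the groups alone, glmTreat and both libraries out. For KO against WT at LCA10, it became 1 with no filter and with both libraries out (Abcc1). glmTreat called 0 in both averaged comparisons, and leaving both libraries out called 0 for KO against WT averaged over doses. With 1 library left out, counts ranged from 0 to 1 in WT at LCA50, 0 to 2 in KO at LCA50, 0 to 2 for KO LCA50 against LCA10, 2 to 3 for averaged LCA50 and 0 to 2 for averaged KO against WT. The background covariate and the omission of WT LCA50 replicate 3 with KO LCA50 replicate 1 were chosen after seeing the data. The causes of these shifts were not tested.

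No pairing of the libraries by replicate number was seen, and the labels do not give the source of the replicates. Same-numbered libraries of different groups had correlated deviations of -0.22 to 0.09, 0 of 45 pairs above 0.1, and 6 of 18 libraries correlated best with their own number. With the number as a replicate block, Abcb1b in WT LCA50 was at -0.40 (edgeR adjusted p = 0.0617) and the number of all genes called went from 1000 to 930. Over all genes and settings, glmTreat gave the fewest calls, 44 of 1000 in WT LCA50, 39 of 740 in KO LCA50, 113 of 1925 for averaged LCA50 and 41 of 600 for averaged KO against WT. Other shifts beyond 1.5 times were 338 with the covariate, 539 and 523 without WT LCA50 replicate 2 or 3 and 662 without WT control replicate 3 in WT LCA50. In KO LCA50 they were 351 with the groups alone, 435 with both libraries out, 481, 438 and 381 without KO control replicate 1, 2 or 3 and 440 without KO LCA50 replicate 1. Where edgeR called few genes, counts moved further, to 1 and 135 from 45 in WT LCA10, 2 and 123 from 38 in KO LCA10, 0 and 471 from 264 in WT LCA50 against LCA10, and 0 and 325 from 161 in KO. For KO against WT they moved to 13 and 213 from 73 in control, 9 and 161 from 77 at LCA10, and 15 and 369 from 226 at LCA50. Differences in response moved from 0 to at most 6 genes for LCA50 and 3 for LCA10.

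Uncalled values near 0 changed sign, as follows on the log2 scale. For the KO minus WT difference in the LCA50 response, Abcc1 was at -0.0029 with DESeq2, -0.0038 with its size factors, -0.0076 at a mean CPM of at least 5, -0.00039 with the replicate block and -0.18 with both libraries out, and Abcb1b was at 0.076 with both out. With no filter, Abcc3 in WT LCA50 was at -0.013 and Abcb1a averaged at -0.015, the latter at -0.00074 with the groups alone. The sum of Abcb1a and Abcb1b is a different quantity, made up mostly of Abcb1b counts. It was at -0.31 in WT LCA50, -0.015 in WT LCA10 and -0.37 averaged. Abcb1a alone was at 0.067, 0.062 and 0.0017. The averaged value of the sum was called (edgeR adjusted p = 0.000442), so it is not an uncalled value that changed sign. With the covariate, Abcb1a was at -0.0088 in WT LCA50 and -0.030 averaged, Abcb1b at -0.015 and Abcc4 at 0.010 in KO LCA10, and Abcc4 at -0.0085 averaged. With both libraries out, Abcb1a was at -0.020 in WT LCA50 and -0.12 averaged, and Abcc3 at -0.064 in WT LCA50. With 1 library left out, Abcb1a ranged from -0.13 to 0.23 in WT LCA50, -0.27 to 0.17 in KO LCA50, -0.10 to 0.12 averaged, -0.19 to 0.27 in WT LCA10 and -0.052 to 0.39 in KO LCA10. In WT LCA10, Abcb1b ranged from -0.11 to 0.024, Abcc1 from -0.11 to 0.10, Abcc5 from -0.12 to 0.0026 and Abcg2 from -0.028 to 0.18. Abcc3 ranged from -0.32 to 0.30 in WT LCA50, and Abcc4 from -0.21 to 0.081 in KO LCA50 and -0.20 to 0.092 in KO LCA10. The differences in the LCA50 response ranged from -0.27 to 0.11 for Abcb1b and -0.13 to 0.077 for Abcc1.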
